A study of Mus musculus with 6 samples.

Results

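The 9 Hoxb genes analysed here, Hoxb1 to Hoxb9, are 9 of the 22662 genes named on an Affymetrix MG-430_2.0 array. They lie side by side on mouse chromosome 11 and were read by 12 of the 45101 probe sets. A probe set was taken as a member when its gene symbol column named one of these genes. Of the 12 probe sets, 11 name 1 gene and 1 names both Hoxb7 and Hoxb8. Hoxb8 has no probe set that names it alone, and Hoxb2, Hoxb3 and Hoxb4 have more than 1. RNA came from total bone marrow of leukaemic mice, 1 array per sample. The 3 samples called KO carry floxed Gfi1b alleles (Gfi1bfl/fl), the Cre transgene MxCretg and the NUP98/HOXD13 transgene. The 3 wildtype samples carry wildtype Gfi1b, MxCretg and NUP98/HOXD13, so the Cre and the fusion oncogene are shared by all 6. Mx-Cre is driven by an interferon-inducible promoter that is active in blood cells and also in other tissues. NUP98/HOXD13 joins a nucleoporin to a homeobox protein of the Hoxd cluster and is used as a mouse model of myelodysplastic syndrome and acute leukaemia. The labels give no age, and nothing in them says that replicates were separate mice. The p-values here therefore cover only the variation among these arrays.

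Hox genes encode homeodomain transcription factors that set position along the body axis, and their order on the chromosome mirrors the order in which they act. In blood the genes of the Hoxb cluster are known from stem and progenitor cells and are switched down as cells mature. HOXB proteins bind DNA together with PBX and MEIS partners, and Hoxb8 is used in culture to hold myeloid progenitors in an immature, dividing state.

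The targeted gene goes against the group names in direction. Gfi1b, a repressor of erythroid and megakaryocytic cells, read 10.88, 11.63 and 11.67 (log2 signal) in the samples labelled KO and 5.83, 6.37 and 4.38 in those labelled wildtype. The deleted exons are not stated in the labels and the position of the probe set relative to them is unknown, so this probe set cannot check the labels. All directions below are those of the samples labelled KO. Marrow cell markers also differed widely. Ptprc, the pan-leukocyte antigen CD45, read between 5.49 and 7.70 in KO and between 10.22 and 10.94 in wildtype at its brightest probe set. With 1 probe set a gene, 1.92% of 20724 genes rose and 1.99% fell in KO at an adjusted p under 0.05 in limma, a linear model fitted over all probe sets. Of 10 neutrophil markers 7 fell and 0 rose, and of 6 monocyte markers 6 fell. Of 9 erythroid markers 2 rose (Gata1 and Car1) and 0 fell. Of 6 megakaryocyte markers and 9 markers of stroma and endothelium 1 each rose, and of 5 B cell markers 1 fell. None of 9 stem and progenitor markers, 5 mast cell markers or 7 T cell markers passed in either direction. The share of these shifts in the Hoxb values was not tested, and in whole marrow fewer cells of a type and less RNA per cell cannot be told apart.

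The largest difference in the cluster was at its 5′ side, at the probe set shared by Hoxb7 and Hoxb8. The RefSeq promoters held for members (build GRCm38.p6) are those of Hoxb1, Hoxb4 and Hoxb8. They are shown because they mark the 3′ end of the cluster, its middle and 1 of the genes named by the shared probe set. The signal of that probe set was not assigned to Hoxb7 or to Hoxb8. Each line gives the 250 bases before the annotated start, 5′ to 3′ on the plus strand, at chr11:96365508-96365757 for Hoxb1, chr11:96318017-96318266 for Hoxb4 and chr11:96281655-96281904 for Hoxb8. Capitals mark matches, on either strand, to TGATNNAT (HOX with PBX), CCAAT (the NF-Y box) and TATAAA (the TATA box).
Hoxb1: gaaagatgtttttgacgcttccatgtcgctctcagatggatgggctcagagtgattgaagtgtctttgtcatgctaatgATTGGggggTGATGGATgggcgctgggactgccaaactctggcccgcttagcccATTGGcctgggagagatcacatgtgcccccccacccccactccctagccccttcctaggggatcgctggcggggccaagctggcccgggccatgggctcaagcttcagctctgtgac
Hoxb4: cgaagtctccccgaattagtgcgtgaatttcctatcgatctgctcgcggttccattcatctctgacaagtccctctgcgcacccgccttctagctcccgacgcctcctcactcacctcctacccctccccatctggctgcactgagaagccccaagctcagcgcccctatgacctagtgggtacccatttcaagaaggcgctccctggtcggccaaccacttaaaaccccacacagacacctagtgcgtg
Hoxb8: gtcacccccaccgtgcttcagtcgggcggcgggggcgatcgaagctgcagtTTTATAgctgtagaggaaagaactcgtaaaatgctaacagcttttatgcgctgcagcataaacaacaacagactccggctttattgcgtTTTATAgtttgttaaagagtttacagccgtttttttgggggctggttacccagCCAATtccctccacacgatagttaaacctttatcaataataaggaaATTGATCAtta
The Hoxb8 window holds 1 TGATNNAT match, on the minus strand 11 to 4 bases before the start, 1 CCAAT and 2 TATAAA matches on the minus strand. The Hoxb1 window holds 1 TGATNNAT and 2 CCAAT matches. The Hoxb4 window matches none of the motifs searched, which says only that these letters are absent from it. The motif AGATAA of erythroid factors and the motif AATCNNNGC of the GFI factors were also searched and matched none of the 3 windows. No match overlapped another. Among 32817 promoter windows of the same length, 7.69% hold TGATNNAT, 33.8% CCAAT, 12.4% TATAAA, 9.99% AGATAA and 8.88% AATCNNNGC. The G and C content was 59.2% for Hoxb1, 58.0% for Hoxb4 and 44.4% for Hoxb8, where the median of all windows was 52.4%. A match is a description of the sequence and not a bound site.

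The cluster also holds microRNA genes, of which miR-196a is shown because it is known to direct cleavage of the Hoxb8 transcript. Its RefSeq sequence (GRCm38.p6, chr11:96265187-96265208, plus strand) has the seed, bases 2 to 8, in capitals. Its level was not analysed here.
miR-196a-5p: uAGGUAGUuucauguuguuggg

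No Hoxb probe set passed the limma test over all 45037 non-control probe sets at an adjusted p under 0.05, where 2.93% of all probe sets did. At an unadjusted p under 0.05, 3 of the 12 members passed (Hoxb3, Hoxb5 and the shared Hoxb7 and Hoxb8 probe set, all higher in KO), against 16.9% of all probe sets in either direction. By the adjusted p of the authors' deposited table the count was also 0 of 12. The groups did not overlap at 5 members, 4 of them higher and 1 lower in KO. Among all probe sets 22.8% did not overlap, 12.5% higher and 10.2% lower. The difference, KO minus wildtype, was above 0 at 10 of 12 members and at 53.9% of all probe sets, and its median was 0.19 for the members and 0.02 for all. Of 26 other Hox genes, each read at its brightest probe set, it was above 0 at 20, with a median of 0.15.

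**Figure D1:**
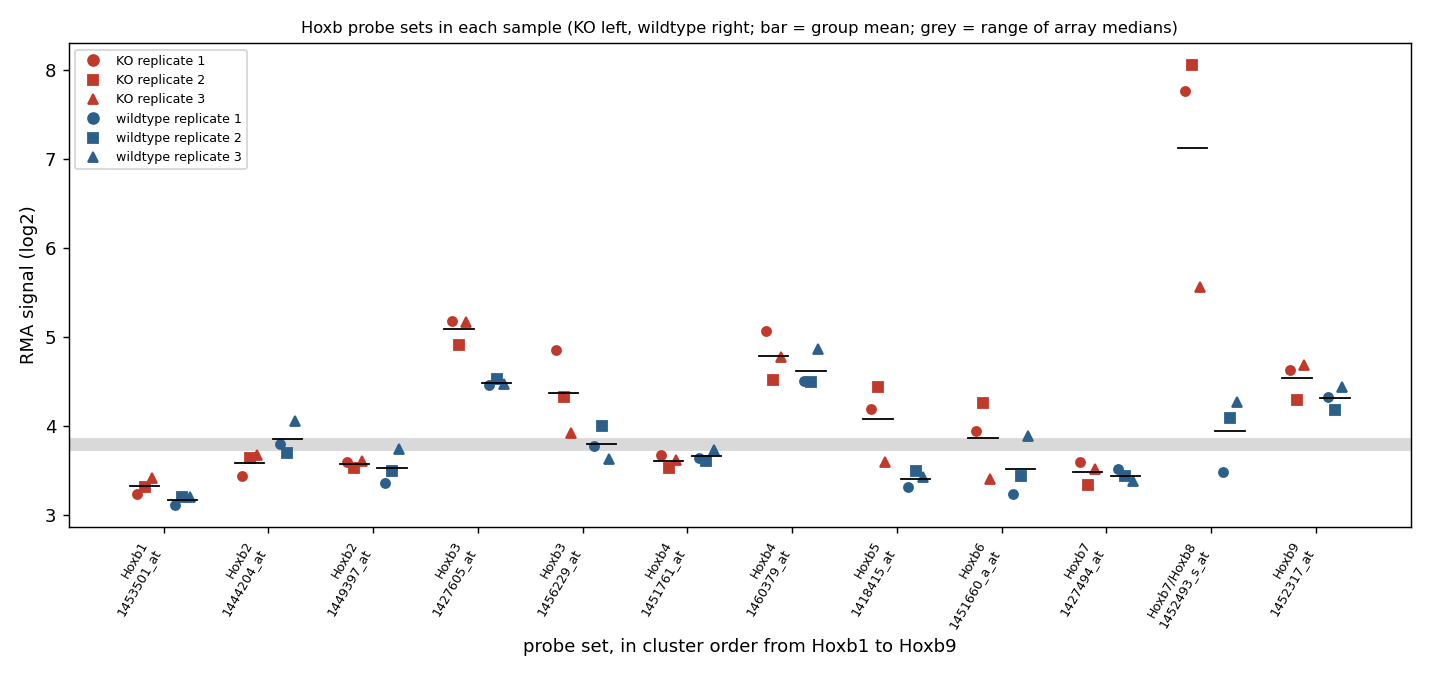
Log2 RMA signal (y axis) of each Hoxb probe set in cluster order (x axis), with 1 point per sample (KO in red on the left, wildtype in blue on the right), black bars for group means and a grey band for the range of array medians, 3.73 to 3.86. The shared Hoxb7 and Hoxb8 probe set stands highest, with KO values from 5.56 to 8.05 above wildtype values from 3.49 to 4.27, while most other members lie near the band.

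Hoxb1 and Hoxb2, the 3′ members that pattern the hindbrain, were read at the bottom of the scale. Hoxb1 read 3.24, 3.32 and 3.42 in KO replicates 1, 2 and 3, against 3.12, 3.21 and 3.20 in wildtype. Its groups did not overlap, but every value lay below the lowest array median of 3.73 and the difference was 0.15 (95% interval -0.11 to 0.41, limma adjusted p = 0.57). For Hoxb2, probe set 1444204_at read 3.44, 3.64 and 3.67 in KO and 3.80, 3.70 and 4.06 in wildtype. This was the 1 member whose KO values all lay below the wildtype values, with a difference of -0.27 (interval -0.60 to 0.07, limma adjusted p = 0.412). The other Hoxb2 probe set, 1449397_at, differed by 0.04 (interval -0.27 to 0.36), so the Hoxb2 probe sets did not share a sign. RMA compresses values near the floor, and a real difference may read smaller there.

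Hoxb3, a regulator of progenitor proliferation, showed the smallest p of the cluster. Its probe set 1427605_at read 5.18, 4.92 and 5.17 in the samples labelled KO and 4.47, 4.53 and 4.47 in those labelled wildtype. The groups did not overlap, and replicates lay close together, with an SD of 0.15 in KO and 0.04 in wildtype (n = 3 each). The means were 5.09 and 4.49, a difference of 0.60 or 1.52-fold (standard error 0.12, 95% interval 0.31 to 0.89, limma adjusted p = 0.0558). The exact permutation p of this probe set, two-sided, was 0.1, which is the lowest that 3 arrays per group can give. Hoxb3 passed with array weights and after a repeated quantile normalization, and its adjusted p ran from 0.0385 to 0.166 over 17 alternatives. The second Hoxb3 probe set, 1456229_at, read 4.86, 4.33 and 3.93 in KO and 3.78, 4.01 and 3.63 in wildtype. There KO replicate 3 lay below wildtype replicate 2, and the difference of 0.57 (interval -0.02 to 1.16, limma adjusted p = 0.314) had the same sign. It ran from 0.32 (without KO replicate 1) to 0.79 (without KO replicate 3) when single samples were left out.

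Hoxb4, known for expanding blood stem cells when overexpressed, showed overlapping groups at both probe sets. Probe set 1460379_at read 5.07, 4.52 and 4.78 in KO and 4.51, 4.49 and 4.86 in wildtype, a difference of 0.17 (interval -0.27 to 0.61, limma adjusted p = 0.717). With single samples left out it ran from 0.03 (without KO replicate 1) to 0.30 (without KO replicate 2). Probe set 1451761_at stayed between 3.53 and 3.73 in all 6 samples and differed by -0.05 (interval -0.31 to 0.20).

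Hoxb5, a gene used to mark long-term stem cells in mice, read 4.19, 4.44 and 3.60 in KO and 3.32, 3.49 and 3.43 in wildtype. All KO values lay above all wildtype values, with KO replicate 3 only just above. The difference was 0.67 (standard error 0.22, interval 0.14 to 1.19, limma adjusted p = 0.191), measured against a wildtype mean of 3.41 near the floor. Hoxb6, a gene expressed in early myeloid and erythroid progenitors, read 3.95, 4.26 and 3.40 in KO and 3.24, 3.45 and 3.89 in wildtype. Here the groups overlapped, since KO replicate 3 was below wildtype replicates 2 and 3, and the difference was 0.35 (interval -0.28 to 0.98, limma adjusted p = 0.582). It was 0.15 without KO replicate 2, 0.21 without wildtype replicate 1, 0.53 without wildtype replicate 3 and 0.58 without KO replicate 3. A probe set whose symbol RefSeq now gives as Hoxb5os, a long non-coding RNA also listed as a Hoxb5 and Hoxb6 antisense transcript, was looked up after the values were seen. It read 4.28, 3.76 and 3.64 in KO and 4.62, 4.34 and 4.75 in wildtype. The groups did not overlap, and its difference of -0.68 (interval -1.17 to -0.18, limma adjusted p = 0.158) was opposite in sign to those of Hoxb5 and Hoxb6.

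The probe set shared by Hoxb7 and Hoxb8, 1452493_s_at, showed the largest difference of the cluster. It read 7.76, 8.05 and 5.56 in KO replicates 1, 2 and 3, against 3.49, 4.09 and 4.27 in wildtype. The groups were separated by more than 1 log2 unit, and KO replicate 3 stood well below the other KO samples. The means were 7.12 ± 1.36 in KO and 3.95 ± 0.41 in wildtype (SD, n = 3 each), a difference of 3.17 or 9.02-fold (standard error 0.64, 95% interval 1.63 to 4.71, limma adjusted p = 0.0575). Of all probe sets 0.160% had a larger positive difference, and 0.184% exceeded a difference of 3. The wildtype values lie near the floor. The difference was 2.86 without KO replicate 1 (limma adjusted p = 0.155), 2.71 without KO replicate 2 (adjusted p = 0.173) and 3.95 without KO replicate 3, where it passed (adjusted p = 0.0112). It also passed with array weights, an intensity trend or a filter on dim probe sets, and its adjusted p ran from 0.0112 to 0.173 over 15 alternatives.

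Hoxb7, a homeobox gene of progenitor cells, is also read by a probe set of its own, 1427494_at. It read 3.59, 3.34 and 3.53 in KO and 3.52, 3.44 and 3.38 in wildtype, below every array median. Its groups overlapped and its difference was 0.04 (interval -0.25 to 0.32, limma adjusted p = 0.911). The shared probe set is of the type that matches more than 1 transcript, and the part of its signal that comes from either gene was not resolved on this array. Hoxb9, the 5′ end of the group, read 4.64, 4.29 and 4.69 in KO and 4.33, 4.18 and 4.44 in wildtype. Its groups overlapped, with a difference of 0.22 (interval -0.14 to 0.58, limma adjusted p = 0.534).

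**Figure D2:**
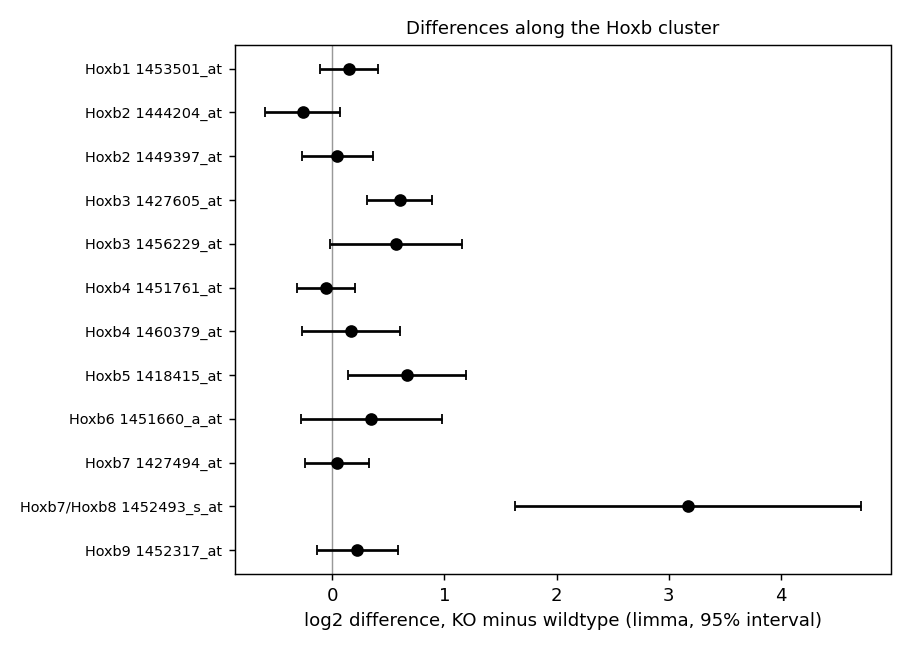
Log2 difference, KO minus wildtype (x axis), for each Hoxb probe set from Hoxb1 at the top to Hoxb9 at the bottom (y axis), with 95% limma intervals. The shared Hoxb7 and Hoxb8 probe set lies at 3.17, and the other 11 lie between -0.27 and 0.67.

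Along the chromosome the differences followed no steady trend. The shared probe set stood apart at 3.17, and its neighbours Hoxb6 and Hoxb9 differed by 0.35 and 0.22. Among the other 11 probe sets differences ran from -0.27 to 0.67, with those of Hoxb3 and Hoxb5 at the upper end. In 5 of the 12 probe sets both group means lay below the highest array median of 3.86, and their differences ran only from -0.27 to 0.15. KO replicate 3 was the lowest KO sample at 4 of 12 probe sets, and at 25.7% of all probe sets, so the count by itself says nothing particular to the cluster. Several marker lists differed between the KO samples as well. The mean log2 signal in KO replicates 1, 2 and 3 was 9.37, 8.83 and 7.34 over 9 erythroid markers, 8.26, 6.39 and 4.25 over 10 neutrophil markers, 5.80, 4.53 and 4.01 over 6 monocyte markers and 6.17, 5.54 and 4.80 over 6 megakaryocyte markers. KO replicate 3 was lowest in these 4 lists, and highest for the 5 mast cell markers, with 5.41 against 3.55 and 3.71. The mast cell markers were uneven, since in KO replicate 3 Cpa3 read 8.88 and Mcpt4 3.26. Over 9 stem and progenitor markers the mean was 5.41, 5.61 and 5.63 in KO and 6.30, 5.00 and 5.11 in wildtype. Over 9 markers of stroma and endothelium it was 4.55, 4.53 and 4.69 in KO. The erythroid mean was 6.69, 8.18 and 6.26 in the samples labelled wildtype. On the linear scale the order differs, since the summed erythroid signal was 15980, 16676 and 18365 in KO, highest in KO replicate 3, and 1331, 4524 and 955 in wildtype. Wildtype replicate 2, which read 4.09 at the shared probe set, had a higher erythroid mean than KO replicate 3 but a lower summed erythroid signal. The part of any of these cell types in the Hoxb values was not tested.

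**Figure D3:**
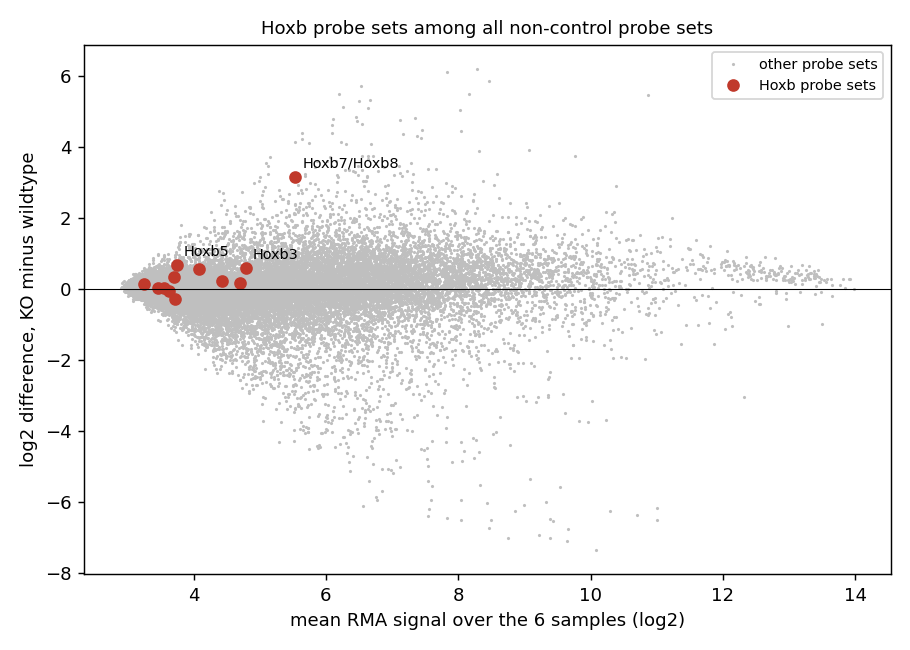
Log2 difference, KO minus wildtype (y axis), against the mean log2 signal over 6 samples (x axis) for all non-control probe sets in grey and the Hoxb probe sets in red, with names where the unadjusted p is under 0.05. The shared Hoxb7 and Hoxb8 probe set lies near the upper edge of the cloud, and the other members lie within it at the dim end.

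The genes most like the shared probe set were chosen by the root mean square difference of log2 values, each centred on its mean over the 6 samples, among 20205 probe sets that name 1 gene and lie above the median signal. They were Rab38, a GTPase of melanosome transport, at 0.33, Nupr1, a stress-induced nuclear protein, at 0.39 and Abcg2, the transporter of the stem cell side population, at 0.40 (log2 units). Abcg2 read 7.90, 7.70 and 6.19 in KO and 3.72, 4.90 and 4.18 in wildtype. Rab38 was 8.86-fold higher without passing (limma adjusted p = 0.0886), while Nupr1 and Abcg2 rose 9.06-fold (adjusted p = 0.0216) and 7.98-fold (adjusted p = 0.0366). With single samples left out, both passed only without KO replicate 3 or without wildtype replicate 2, and their adjusted p otherwise reached 0.109 and 0.147. Rab38 passed without KO replicate 3 (adjusted p = 0.0128) and with a filter on dim probe sets (adjusted p = 0.0466). The probe sets read for Rab38 and Nupr1 (suffix _x_at) are of a type that can match several transcripts. For Hoxb3 the nearest were Cep70, a centrosomal protein, Hectd4 (listed under an older name) and a gene with no symbol in the file, at 0.07 each. Likeness was measured over all 6 samples, so genes with the same difference between the groups and the same order within them, such as a low KO replicate 3, are favoured by the choice itself.

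**Figure D4:**
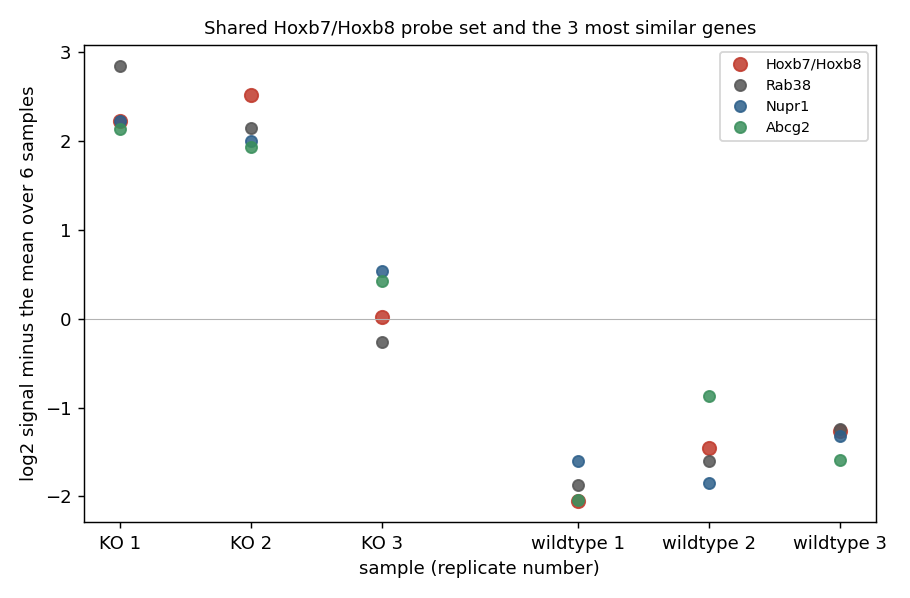
Log2 signal minus the mean over 6 samples (y axis) for the shared Hoxb7 and Hoxb8 probe set in red and for Rab38, Nupr1 and Abcg2, in each sample (x axis, KO on the left, wildtype on the right). The choice for likeness fixes the shared pattern, in which KO replicate 3 is the lowest KO sample and every wildtype value lies below the mean.

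Among other Hox genes, partners and regulators no more than 1 gene of a list rose and no more than 1 fell. Over all genes 1.92% rose and 1.99% fell, and counts this small were not tested against those shares. Of 26 other Hox genes 1 rose and 0 fell (median difference 0.15, against 0.01 for all genes). At 13 of the 26 both group means lay below 3.82, the median signal of all probe sets. The gene that rose was Hoxa10, which read 5.00, 5.02 and 5.88 in KO and 3.72, 3.76 and 3.18 in wildtype, a rise of 1.75 (limma adjusted p = 0.0336). Hoxa9 had the largest difference of the list, 2.28, without passing (limma adjusted p = 0.153). Unlike the shared probe set, Hoxa10 was highest in KO replicate 3. Of 10 cofactors of the TALE class 0 rose and 1 fell. It was Pbx2, which encodes a DNA-binding partner of HOX proteins, with 6.11, 5.82 and 6.13 in KO and 7.06, 6.73 and 7.32 in wildtype, a difference of -1.02 (adjusted p = 0.0417). Of 43 regulators of Hox expression 1 rose and 1 fell, with a median of 0.05. At an unadjusted limma p under 0.05, 2 other Hox genes, 2 TALE cofactors and 13 regulators passed in either direction. Among all probe sets 16.9% did, but the lists use only the brightest probe set of a gene. Mllt3, which encodes a reader of acetylated chromatin in the elongation machinery, rose by 4.65 (adjusted p = 0.0097). Rara, the retinoic acid receptor alpha gene, fell by 1.62 (adjusted p = 0.0407), with KO values from 4.16 to 4.46 and wildtype values from 5.34 to 6.47. With single samples left out, Hoxa10 passed only when the omitted one was KO replicate 3 or wildtype replicate 2, and its adjusted p otherwise reached 0.11. Those of Pbx2 and Rara were lost without any 1 sample other than wildtype replicate 2 (adjusted p up to 0.147 and 0.145), and that of Mllt3 without KO replicate 2 (adjusted p = 0.0697). The probe sets of Hoxa10 and Rara (suffix _a_at) and of Mllt3 (suffix _s_at) are of types that can match several transcripts. With such probe sets left out, these genes were not tested, and 0 other Hox genes and 0 regulators passed.

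Of 13 genes next to the cluster on chromosome 11, 0 passed in limma and 1 had an unadjusted p under 0.05, with a median of -0.08. That gene, Snx11, a sorting nexin, read 5.25, 4.92 and 4.82 in KO and 5.45, 5.23 and 5.72 in wildtype, a difference of -0.47 (adjusted p = 0.256). Skap1, an adaptor of T cell receptor signalling next to Hoxb1, differed by -0.92 (adjusted p = 0.492), with a single high value of 5.76 in wildtype replicate 2, and by -0.20 without that sample. The mean of the 7 T cell markers was also highest in wildtype replicate 2, at 8.66 against 4.96 and 4.87 in the other wildtype samples, and its part in the Skap1 value was not tested. Hoxb13, the detached 5′ member of the cluster, differed by -0.09 (interval -0.38 to 0.20) and stayed between 3.27 and 3.57 in all samples.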

How the data were processed

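Bone marrow RNA of 6 samples (3 KO, 3 wildtype by their titles) was measured on 1 array each, after conversion of 200 ng total RNA to biotinylated cRNA, per the labels' protocols. Per the submitters' processing notes the authors used RMA, a background correction, quantile normalization and probe set summary, and the deposited values are its log2 signals. Its version is not given in the sources used. A difference after RMA is therefore relative to the rest of the array. The second deposited table adds symbols, signed fold values and the authors' p-values. Its log2 values, compared within each group without regard to sample order, differ from the first by at most 0. Values of the table with sample names were used. The number of arrays limits the precision.

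Of 45101 probe sets 64 array controls were left out. The others were fitted with limma 3.58.1 in R 4.3.3 (lmFit, eBayes), as KO minus wildtype. P-values are two-sided and adjusted over 45037 probe sets by Benjamini-Hochberg. No dim probe sets were filtered. Of those tested, 37285 name 1 gene, 1796 several and 5956 none. Outside the members, a gene was read at its probe set with the highest mean. The fit was tested on simulated data. Alternatives were single samples left out, the replicate number as a block, a repeated quantile normalization, the other table, array weights and an intensity trend. Others were robust moderation, a dim filter, array controls kept, 1 probe set a gene and the authors' statistics. The last left out probe sets whose suffix (_x_at, _s_at or _a_at) marks types that can match several transcripts, of 1 gene or of several. All Hoxb probe sets, Gfi1b, the members of each fixed list past the threshold (otherwise the 2 with the smallest p) and the 3 most similar genes of 2 Hoxb probe sets are named by rule. List genes were matched by symbol or RefSeq synonym, and Hoxa6, Hoxc11, Hoxc12, Hoxd4 and Meis3 had no match. Members, lists and motifs were chosen with earlier results of these data known. Samples with the same replicate number did not deviate together (correlations of -0.14, -0.03 and -0.02), so the numbers were not used as pairs. Python 3.11.15 and matplotlib 3.10.9 made the figures.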

Additional observations from a re-analysis of the deposited data

How the results depend on the processing

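The count of Hoxb probe sets past the threshold was 0 and became 1 after a repeated quantile normalization (Hoxb3, adjusted p = 0.0385), 1 with an intensity trend (the shared Hoxb7 and Hoxb8 probe set, adjusted p = 0.029), 1 with a filter on dim probe sets (the shared one, adjusted p = 0.0305) and 2 with array weights (both, adjusted p = 0.0419 for Hoxb3 and 0.0336 for the shared one). Leaving out each sample in turn gave 0 to 1. The adjusted p of Hoxb3 (1427605_at) ran from 0.0385 to 0.166 over 17 alternatives and that of the shared probe set from 0.0112 to 0.173 over 15 alternatives, with no change of sign. The causes were not tested. The signs of Hoxb2 (1449397_at) and Hoxb7 (1427494_at) turned when a sample was left out, to -0.042 for Hoxb2 without wildtype replicate 1 and to -0.016 for Hoxb7 without KO replicate 1 (highest values 0.15 and 0.11). The count over all probe sets was 1319, ran from 49 (without KO replicate 2) to 2187 (without wildtype replicate 2) when a sample was left out, and was 833 with the replicate block, under which 0 Hoxb probe sets passed. The replicate block ended the calls of Hoxa10 (adjusted p = 0.0895), Pbx2 (0.0503), Rara (0.0803) and Abcg2 (0.0509), and the intensity trend ended that of Pbx2 (0.0792). Without probe sets of types that can match several transcripts, Hoxa10, Mllt3, Rara, Rab38, Nupr1 and Cep70 were not tested. Nor were Hoxb6, the shared Hoxb7 and Hoxb8 probe set and the gene with no symbol most like Hoxb3. Within each group the table with gene symbols held the same values as the one used, so that alternative could give no other result. Signal near the floor limits the members, since 5 of 12 had both means below the highest array median.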
